A study of Mus musculus with 12 samples.

Results

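The ventral forebrain and interneuron factors are transcription factors of the homeodomain class that specify inhibitory neurons, and 8 gene symbols were chosen for them by name, Dlx1, Dlx2, Dlx5, Dlx6, Lhx6, Gsx2, Nkx2-1 and Isl1. Probesets of the main type were found under 7 of the 8 symbols, and Dlx6 was not analysed here. These 7 factors were covered by 72 of the 221417 main probesets with a gene symbol, and 68 of the 72 passed the filter on spread that the study's methods describe, which rejects a probeset whose SD exceeds 0.4 of its mean in either genotype. The samples were whole brains of newborn female mice, 6 KIS +/+ (wildtype) and 6 KIS -/- (KIS-ko), with 1 array per brain and 1 wildtype and 1 KIS-ko littermate from each of 6 litters. The KIS-ko line lacks the kinase KIS in all cells and had been backcrossed to C57BL6/N, and the wildtype littermates carry no mutated KIS allele. A probeset is a group of short probes in 1 exon or part of an exon, and its signal is a normalized linear intensity. The value of a gene is the mean over its kept probesets of log2(signal + 16).

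In the embryonic ventral forebrain, the ganglionic eminences produce most GABA-releasing neurons of the telencephalon. Gsx2 acts in dividing progenitors and lies upstream of the Dlx genes, which are transcribed in late progenitors and young migrating neurons of almost all forebrain GABAergic lineages. Nkx2-1 patterns the medial ganglionic eminence and turns on Lhx6, which then marks cortical and striatal interneurons from that source. Isl1 is found in neurons that form the striatal projection pathway and in forebrain cholinergic neurons. Nkx2-1 and Isl1 are also expressed in the hypothalamus, and Isl1 in motor and sensory neurons, so that whole brain RNA pools several sources of these transcripts. These factors were examined because genes of GABA signalling were of interest in KIS-ko brains, and their levels describe the lineage that makes GABAergic neurons. In RNA from whole brain, fewer cells of a type and less RNA per cell cannot be told apart.

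The start regions of 4 of these genes are shown because each pair is taken up below, Dlx1 and Dlx2 as neighbours on 1 chromosome, and Nkx2-1 and Isl1 as the factors whose gene values were lower in KIS-ko brains. Each sequence is the 250 bases before the annotated start of the gene, from RefSeq on build GRCm38.p6, written 5′ to 3′ along the gene, at chr2:71529195-71529444 (plus strand) for Dlx1, chr2:71546755-71547004 (minus strand) for Dlx2, chr12:56536909-56537158 (minus strand) for Nkx2-1 and chr13:116309689-116309938 (minus strand) for Isl1. Capitals mark 3 short motifs searched on both strands, TAATT (the core bound by homeodomains), CACGTG (an E-box) and ATTGG (the CCAAT box).
Dlx1: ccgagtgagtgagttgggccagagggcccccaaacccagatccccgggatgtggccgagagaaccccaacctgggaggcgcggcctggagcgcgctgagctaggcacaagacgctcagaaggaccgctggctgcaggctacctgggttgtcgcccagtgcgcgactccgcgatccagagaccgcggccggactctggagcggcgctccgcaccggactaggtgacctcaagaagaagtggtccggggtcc
Dlx2: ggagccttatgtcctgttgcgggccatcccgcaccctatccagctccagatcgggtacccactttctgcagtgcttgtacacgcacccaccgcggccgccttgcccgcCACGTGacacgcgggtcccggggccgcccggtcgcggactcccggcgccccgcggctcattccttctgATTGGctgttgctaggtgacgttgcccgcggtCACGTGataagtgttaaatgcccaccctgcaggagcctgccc
Nkx2-1: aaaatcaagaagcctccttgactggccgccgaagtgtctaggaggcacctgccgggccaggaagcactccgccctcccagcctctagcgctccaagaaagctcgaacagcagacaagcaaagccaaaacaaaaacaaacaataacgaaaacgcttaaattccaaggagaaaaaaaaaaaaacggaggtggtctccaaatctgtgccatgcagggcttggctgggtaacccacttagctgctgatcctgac
Isl1: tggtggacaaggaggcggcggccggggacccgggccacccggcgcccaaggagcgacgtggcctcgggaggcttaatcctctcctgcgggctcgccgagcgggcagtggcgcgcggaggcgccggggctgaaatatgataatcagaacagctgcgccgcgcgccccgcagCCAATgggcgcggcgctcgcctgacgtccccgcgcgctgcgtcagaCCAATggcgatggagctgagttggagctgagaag
The E-box was found 2 times before Dlx2 and the CCAAT box 1 time, and the CCAAT box 2 times before Isl1. None of the 3 motifs was found in the windows of Dlx1 and Nkx2-1. Over the 32851 RefSeq windows of the same length, 6.02% held CACGTG, 33.8% held ATTGG and 25.0% held TAATT. The 4 windows differed in base composition, with 33 CpG dinucleotides before Isl1, 24 before Dlx2, 22 before Dlx1 and 9 before Nkx2-1, against a median of 6 over all windows. RefSeq windows were found for 6 of the factors (8 windows, 3 of them of Lhx6), and Dlx5 had none.

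The knockout was visible in the targeted gene. The gene value of Uhmk1, which encodes KIS, was between 10.89 and 11.07 in the wildtype and between 8.62 and 8.98 in the KIS-ko brains, a log2 difference of -2.11 ± 0.068 (SE, limma adjusted p = 2.9e-07). It was the only one of 17279 genes past an adjusted p of 0.05. Unadjusted, 1065 genes were under the same limit, of which 750 were lower. With each array centred on its median the lower ones numbered 295 of 1109, and with quantile normalization repeated 413 of 1225. The medians of the deposited arrays lay between 460 and 526, and in 5 of 6 litters the KIS-ko array had the lower one. Signal over background was judged against 5222 intron control probesets, whose 95th percentile was a signal of 713.

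No difference between genotypes passed the test for any of the 7 factors. Their adjusted p from limma lay between 0.707 and 0.956, and 0 of 7 were called, where the share over all genes was 0.00579%. At an unadjusted p under 0.05, 0 of 7 were found, against 6.16% of all genes, and for 0 of 7 did the genotypes separate without overlap (0.208% of all genes). The values of Dlx1, Dlx2, Dlx5, Lhx6 and Gsx2 were slightly higher in KIS-ko brains, by 0.0091 to 0.052 on the log2 scale, and those of Nkx2-1 and Isl1 lower, by differences of -0.080 and -0.075. Thus 2 of 7 factors were lower, where 69.8% of all genes were lower, a share that was 37.7% with each array centred on its median and 48.2% with quantile normalization repeated. The median difference of the 7 was 0.037 against -0.036 for all genes as deposited, 0.093 against 0.020 with arrays centred, and 0.069 against 0.0026 with quantile normalization repeated. Under these scalings the 5 higher factors differed by 0.065 to 0.11 and by 0.053 to 0.083. The signs of the 7 factors were the same under both, but those of Dlx1 and Gsx2 turned with the median in place of the mean over probesets, that of Dlx5 when dim probesets or litter 4 or 6 were left out, and that of Nkx2-1 by the weighted fold change of the study's methods. Leaving out litters in turn gave the 7 a median from 0.013 (without litter 4) to 0.049, with 0.023 without litter 2. With the median over probesets, the median of the 7 was reversed, at -0.020 against -0.035 for all genes, and 4 of the 7 were lower.

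**Figure D1:**
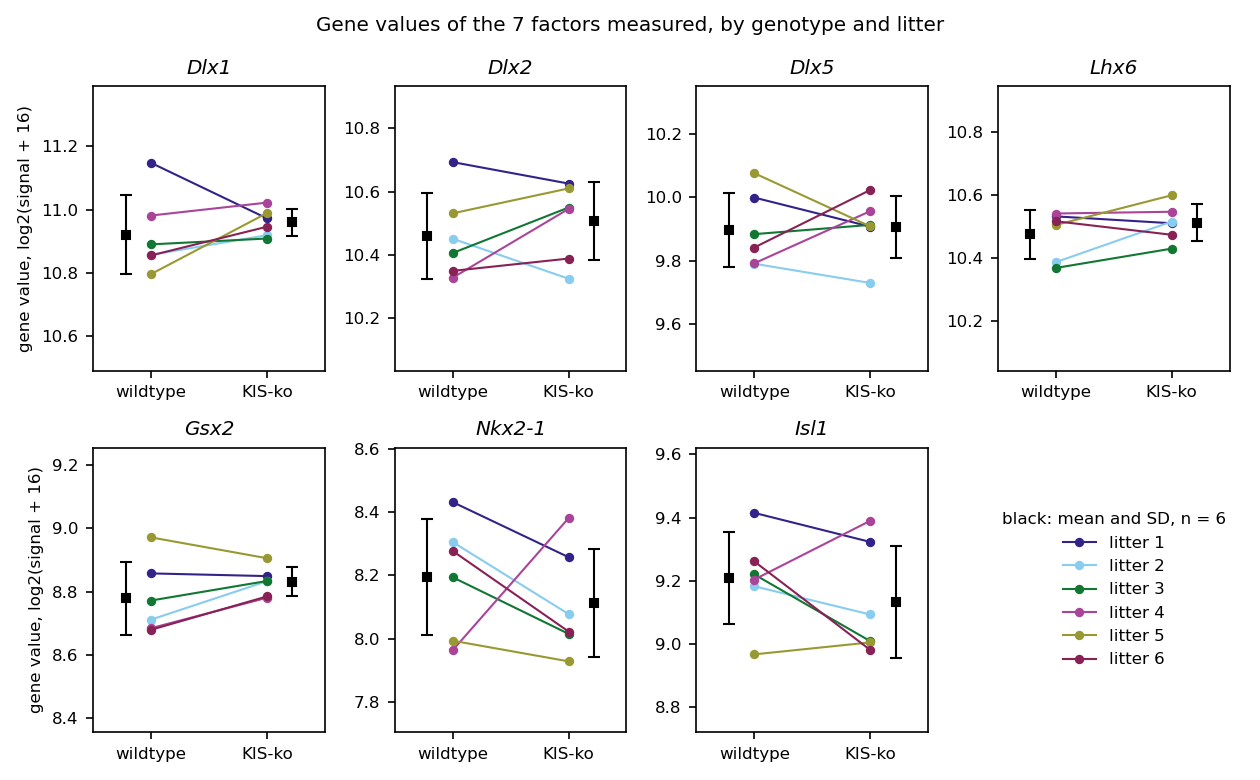
Gene value (log2 of signal + 16, vertical axis) of each of the 7 factors in the wildtype and KIS-ko brain of each litter, joined by a line for each litter, with the mean and SD of each genotype (n = 6) in black. Each panel spans the same range on the log2 scale. The genotypes overlap in every panel, and the line of litter 4 for Nkx2-1 runs against those of the other 5 litters.

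Gsx2, the progenitor factor, is listed on chromosome 5 from 75471788 to 75473851 (positions of the factors' probesets are those of the deposited table, whose build is not given in the sources used here). Its median signal over kept probesets was 529, below the control limit of 713, and 4 of 9 probesets were above it. Its gene values were 8.68 at the lowest, 8.74 at the median and 8.97 at the highest in wildtype brains, and 8.78, 8.83 and 8.91 in KIS-ko brains. The groups overlapped, with the wildtype brain of litter 5 above and those of litters 2, 3, 4 and 6 below the KIS-ko values. The log2 difference was 0.052 ± 0.047 (SE, limma adjusted p = 0.717), with higher values in 4 of 6 litters, and the 95% interval of the fold ran from 0.964 to 1.11. The difference was 0.021 without probesets under the median intron control and 0.026 with the 4 probesets above 713 alone.

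Dlx1 and Dlx2 lie next to each other on chromosome 2 and are transcribed toward each other, with 9670 bases between their nearest probesets. Both were well measured. All 8 probesets of Dlx1 and 9 of 12 of Dlx2 had a mean signal above the control limit of 713. The gene values of Dlx1 were 10.80, 10.87 and 11.15 (lowest, median and highest) in wildtype and 10.91, 10.96 and 11.02 in KIS-ko brains. All KIS-ko values thus fell inside the wildtype range, whose upper end was the brain of litter 1. The log2 difference was 0.038 ± 0.055 (SE, limma adjusted p = 0.795), higher in 5 of 6 litters. It ranged from 0.0073 without litter 5 to 0.081 without litter 1.

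For Dlx2 the gene values were 10.33, 10.43 and 10.69 in wildtype and 10.33, 10.55 and 10.63 in KIS-ko brains, and the groups overlapped over nearly their whole range. The difference was 0.047 ± 0.056 (SE, limma adjusted p = 0.759), with higher values in 4 of 6 litters, and ranged from 0.013 without litter 4 to 0.082 without litter 2 (0.028 without litter 3). With the arrays centred on their medians it was 0.10, with an unadjusted p of 0.033 and an adjusted p of 0.731 from limma, a setting in which 6.42% of all genes had an unadjusted p under 0.05. The neighbours did not always move together. In litter 2 the difference of Dlx1 was 0.062 and that of Dlx2 -0.13, while in litter 1 both were lower, by differences of -0.18 and -0.068.

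Dlx5, the Dlx gene of the second cluster, on chromosome 6 from 6827920 to 6832075, had gene values of 9.79, 9.86 and 10.08 in wildtype and 9.73, 9.91 and 10.02 in KIS-ko brains. The KIS-ko brains held the lowest value and a wildtype brain the highest. The difference was 0.0091 ± 0.059 (SE, limma adjusted p = 0.956), higher in 3 of 6 litters and lower in the other 3. It was the smallest among the 7 factors.

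Lhx6, the marker of interneurons from the medial ganglionic eminence, was the factor with the most probesets (15, all kept and all marked as matching 1 place) and the least variable one. Its gene values were 10.37, 10.51 and 10.54 in wildtype and 10.43, 10.51 and 10.60 in KIS-ko brains. The medians of the genotypes were almost equal and the ranges overlapped. The difference was 0.037 ± 0.047 (SE, limma adjusted p = 0.769), with higher values in 4 of 6 litters, and 0.019 without litter 2. The SD of its 6 litter differences was 0.068, lower than in all but 5.26% of genes, where the median was 0.144.

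For the 5 factors with the higher values, the 95% intervals of the fold had lower ends between 0.920 and 0.964 and upper ends between 1.10 and 1.13. A p that misses the threshold does not show equal levels, and these intervals give the range of folds covered. For Nkx2-1 the interval was wider, from 0.832 to 1.08, and for Isl1 it ran from 0.861 to 1.05.

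**Figure D2:**
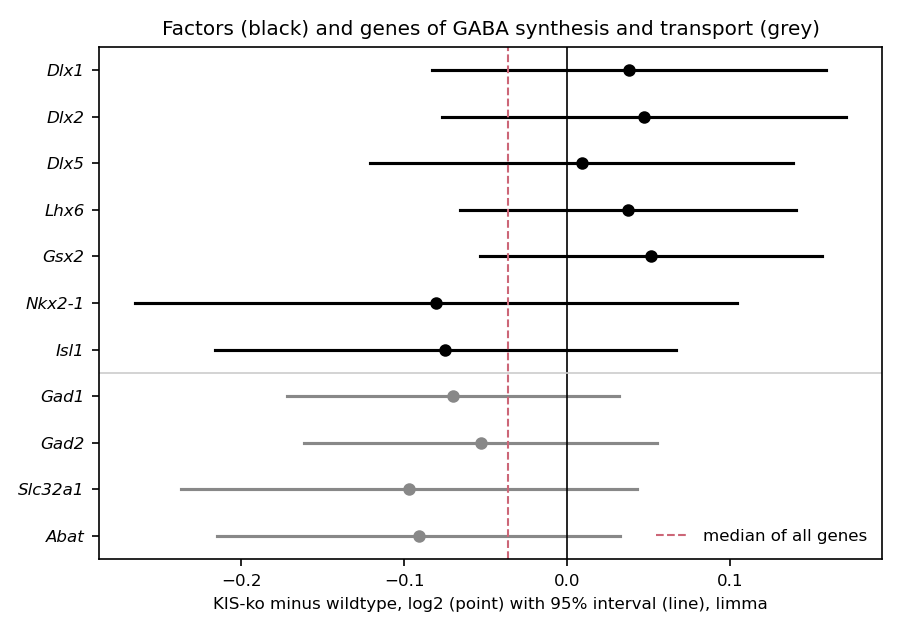
Log2 difference (KIS-ko minus wildtype, horizontal axis) with its 95% interval from limma for the 7 factors (black) and 4 genes of GABA synthesis and transport (grey); the dashed line is the median of all genes at -0.036. Every interval crosses 0, and 5 of the 7 factors but none of the 4 grey genes have a point above 0.

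Nkx2-1, which sets the identity of the medial ganglionic eminence and of parts of the hypothalamus, was dim. None of its 8 probesets on chromosome 12 (57633066 to 57637796) had a mean signal above 713, and the brightest reached 610. Its gene values were 7.96, 8.24 and 8.43 in wildtype and 7.93, 8.05 and 8.38 in KIS-ko brains. The ranges overlapped almost entirely, although the KIS-ko brain was the lower one in 5 of 6 litters, as it was in 5 or 6 litters for 22.5% of all genes. The log2 difference was -0.080 ± 0.083 (SE, limma adjusted p = 0.736). By the weighted fold change of the study's methods, the mean of the littermate ratios of each probeset weighted toward probesets with less spread, it was 1.00 ± 0.16 (SD, n = 6 pairs).

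Nkx2-1 was also the most variable of the 7, with an SD of 0.25 over the litter differences, above 89.0% of all genes. The differences were -0.17, -0.23, -0.18, -0.065 and -0.25 in litters 1, 2, 3, 5 and 6, and 0.42 in litter 4. In litter 4 the wildtype brain had the lowest value of its genotype and the KIS-ko brain the highest. With litter 4 left out the difference was -0.18 ± 0.047 (SE, limma unadjusted p = 0.0041 and adjusted p = 0.120), and 23.3% of all genes then had an unadjusted p under 0.05. It was -0.046 without litter 6 and -0.051 without litter 2. Other settings also gave smaller differences, -0.025 with arrays centred, -0.033 with quantile normalization repeated, -0.029 without probesets under the median intron control and -0.0086 with the spread filter at 0.2. Of 10 hypothalamic genes measured, 0 had a median signal above 713, and their mean value lay between 7.83 and 8.03 in wildtype and between 7.93 and 8.06 in KIS-ko brains. Their part in the values of Nkx2-1 was not tested.

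Isl1, the factor of striatal projection and cholinergic neurons, is listed on chromosome 13 from 117088849 to 117099736. It was dim, with 3 of 11 probesets above 713 and a median signal of 555 over those kept. Its gene values were 8.97, 9.21 and 9.41 in wildtype and 8.98, 9.05 and 9.39 in KIS-ko brains, again with full overlap. The difference was -0.075 ± 0.064 (SE, limma adjusted p = 0.707), with lower values in 4 of 6 litters. It was -0.019 with arrays centred, -0.023 with quantile normalization repeated, -0.034 without litter 6 and -0.047 without litter 3. Without litter 4 it was -0.13, with an unadjusted p of 0.049 and an adjusted p of 0.214 from limma. In that setting 23.3% of all genes had an unadjusted p under 0.05. In 5 of 6 litters Isl1 and Nkx2-1 differed in the same direction, and the exception was litter 5 with differences of 0.038 and -0.065. In litters 3 and 6 both were lower while the Dlx genes were higher. The differences of Isl1 and Nkx2-1 in litter 6 were -0.28 and -0.25, against 0.091, 0.039 and 0.18 for Dlx1, Dlx2 and Dlx5.

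Single exons were examined with the 68 probesets kept. In KIS-ko brains 32 of them were lower, where 66.2% of all probesets were lower, and 36 were higher. Tested one by one with limma, 0 of 68 passed an adjusted p of 0.05, where 0.00487% of all probesets did, and 2 had an unadjusted p under 0.05, against 6.63% of all. With each array centred on its median 15 of 68 were lower and 6 had an unadjusted p under 0.05, against 43.4% and 6.29% of all probesets. Without litter 4 the counts were 40 and 7, against 69.1% and 16.3% of all. No probeset of the factors separated the genotypes without overlap (0.173% of all did). The balance differed between genes. All 10 kept probesets of Isl1 were lower, by differences from -0.13 to -0.017, and those of Dlx2 were higher in 9 of 11, whereas in Dlx5 5 were lower and 4 higher, and in Lhx6 6 were lower and 9 higher. Probesets of 1 gene measure the same transcripts and are not replicates.

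One of the probesets with an unadjusted p under 0.05 lies at 75473086 to 75473315 in Gsx2. Its signals were 68.9, 82.5 and 94.0 (lowest, median and highest) in wildtype and 85.2, 104 and 122 in KIS-ko brains. It was higher in KIS-ko in 6 of 6 litters, with a log2 difference of 0.29 ± 0.068 (SE, limma adjusted p = 0.666), but all its signals except the highest lay below the median intron control of 114. The 4 probesets of Gsx2 above the control limit of 713 differed by -0.048 to 0.13. The other probeset is in Nkx2-1, at 57634478 to 57634510, with signals of 61.3, 95.1 and 118 in wildtype and 38.1, 68.7 and 93.4 in KIS-ko brains. Its difference was -0.39 ± 0.16 (SE, limma adjusted p = 0.751), with lower values in 5 of 6 litters, and its mean signal of 80.9 was also below the median control.

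The brightest probesets had small differences. In Dlx2 the probeset at 71382633 to 71382712 had signals of 4571, 4943 and 5834 in wildtype and 4945, 5345 and 5867 in KIS-ko brains, higher in 6 of 6 litters but with overlap. The difference was 0.079 ± 0.062 (SE), with an unadjusted limma p of 0.234. In Isl1 the brightest probeset, at 117098526 to 117098641, had signals of 1077, 1245 and 1361 in wildtype and 987, 1134 and 1365 in KIS-ko brains. Its difference was -0.073 ± 0.061 (SE, limma adjusted p = 0.809). The factors also held probesets with almost no signal. A Gsx2 probeset at 75471935 to 75471962 was near 0 on every array and passed the filter on spread, and without such probesets the difference of Gsx2 was 0.059. The lower value without probesets under the median intron control, given above, also leaves out the one with the difference of 0.29.

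**Figure D3:**
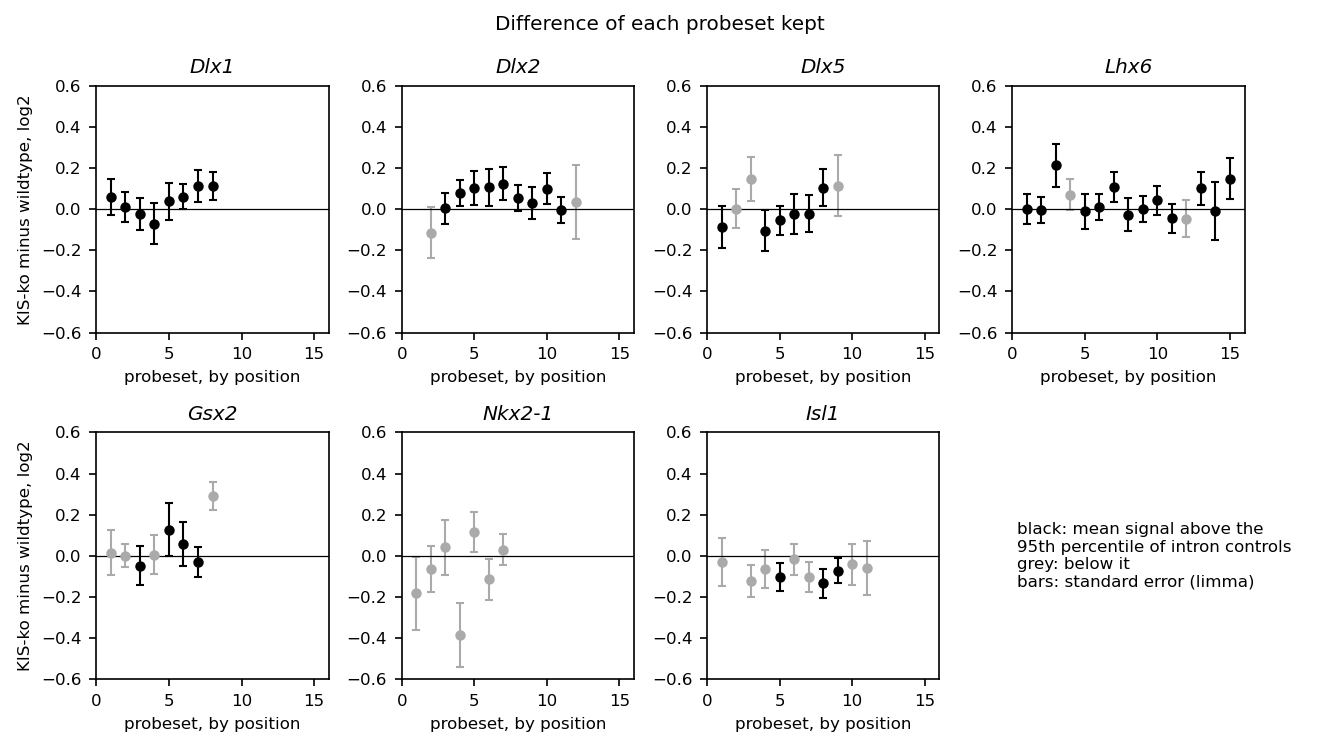
Log2 difference (KIS-ko minus wildtype, vertical axis) with its standard error from limma for each kept probeset of the 7 factors, in order of chromosomal position (horizontal axis), black where the mean signal was above the 95th percentile of intron controls (713) and grey below. The 10 probesets of Isl1 all lie below 0, those of Dlx2 mostly above, and the widest departures, in Gsx2 and Nkx2-1, are grey.

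Within litters, the 7 factors followed different courses. In litter 1 all 7 were lower in the KIS-ko brain, from -0.18 to -0.0085, and in litter 4 all 7 were higher, from 0.0055 to 0.42. In litters 2, 3, 5 and 6 the numbers lower were 4, 2, 3 and 3 of 7. In all, 19 of 42 litter differences were below 0. The median gene of the array pair was -0.046, -0.086, 0.0023, 0.071, -0.052 and -0.11 in litters 1 to 6, and litter 4 was the one in which the KIS-ko array had the higher median. The median difference of the factors was -0.092, -0.061, 0.029, 0.16, 0.038 and 0.039 in litters 1 to 6. That of the 5 genes of GABA synthesis and transport was -0.12, -0.21, -0.0027, 0.040, -0.086 and -0.15. That of 21 GABA-A and glycine receptor genes was -0.11, -0.089, 0.035, 0.093, -0.11 and -0.20. In litters 5 and 6 the medians of both GABA lists were below 0, as was the median gene, and that of the factors above 0. Over the lists of other cell types taken up below, the medians ran from -0.26 (endothelium) to 0.073 (microglia) in litter 2. In litter 6 they ran from -0.29 (oligodendrocyte lineage) to 0.088 (pituitary). The difference between the lists was not tested.

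**Figure D4:**
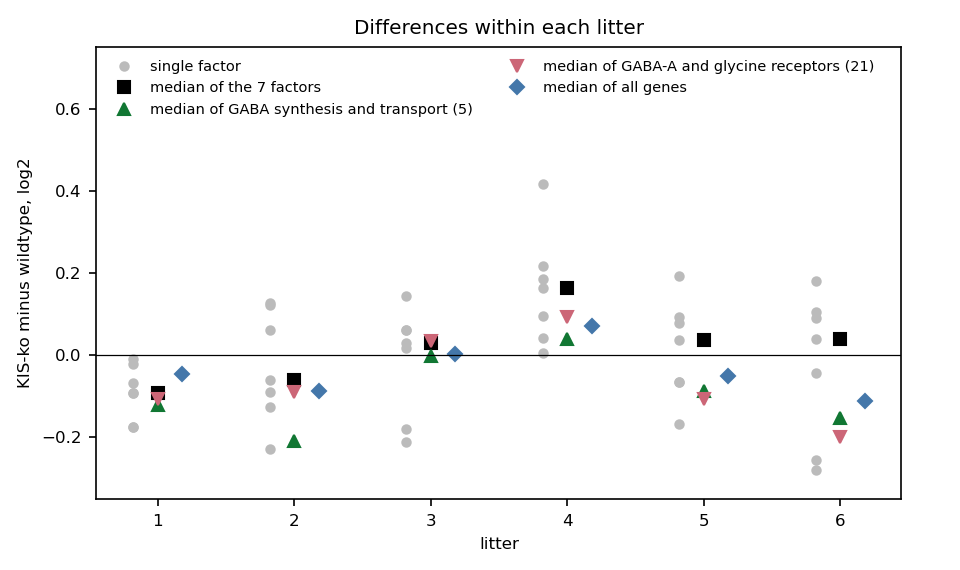
Log2 difference (KIS-ko minus wildtype, vertical axis) in each of the 6 litters for the single factors (light points), the median of the 7 factors, of 5 genes of GABA synthesis and transport and of 21 GABA-A and glycine receptor genes, and the median of all genes. All factors lie below 0 in litter 1 and above 0 in litter 4, and in litters 5 and 6 the median of the factors is above 0 while the other medians are below.

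The other genes of the lineage were read from lists written by function. Of the 5 genes of GABA synthesis and transport all 5 were lower, with 0 of 5 past the adjusted threshold of limma and 0 of 5 at an unadjusted p under 0.05, where 69.8% of all genes were lower. With arrays centred 4 of 5 were lower (37.7% of all genes), and with quantile normalization repeated 5 of 5 (48.2%), with list medians of -0.080 as deposited, -0.024 and -0.053. Among them Gad1 and Gad2 (the glutamate decarboxylases), Slc32a1 (the vesicular transporter) and Abat (GABA transaminase) had differences of -0.070, -0.053, -0.097 and -0.091. Of 4 other progenitor factors 2 were lower, with 0 of 4 at an unadjusted p under 0.05. Of 14 factors and receptors of postmitotic interneurons 9 were lower and 5 higher, with a median of -0.0091 that was 0.047 and 0.038 under these scalings, where 2 and 4 were lower. Cxcr4, the chemokine receptor of migrating interneurons, had the lowest value of this list, -0.13 ± 0.069 (SE, limma adjusted p = 0.685). None of the genes of these lists passed the adjusted threshold.

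Genes of mature or related neurons were read in the same way. Of 9 genes of interneuron subtypes 4 were lower and 5 higher. Their differences ran from -0.11 (Calb1, calbindin, lower in 6 of 6 litters) to 0.11 (Pvalb, parvalbumin, higher in 6 of 6 litters). The median signal of Pvalb, 165, was below the control limit. With arrays centred and with quantile normalization repeated, 2 and 3 of the 9 were lower, with medians of 0.056 and 0.039. The neuropeptides Sst and Npy differed by 0.012 and -0.029, and Reln, the reelin gene, by 0.00011. Of 16 striatal genes 13 were lower, with a median of -0.039 close to that of all genes, and 2 were lower at an unadjusted p under 0.05, as were 4.34% of all genes. Under the scalings 7 and 9 of the 16 were lower, with medians of 0.017 and -0.0053. Tac1, the substance P precursor, had the lowest p of the list (-0.20 ± 0.077 SE, limma unadjusted p = 0.029 and adjusted p = 0.685). Of 4 forebrain cholinergic genes 2 were lower. Of 10 hypothalamic genes 4 were lower and 6 higher, with a median of 0.062. Under the scalings the median was 0.12 and 0.11, and 2 of 10 were lower in each. Hcrt, the orexin precursor, was lower with an unadjusted limma p of 0.034 (difference -0.12, adjusted p = 0.685). Under the scalings 0 of the 10 were lower at an unadjusted p under 0.05. Of the 21 GABA-A and glycine receptor genes 18 were lower, where 69.8% of all genes were. At an unadjusted p under 0.05, 3 of the 21 were lower (4.34% of all genes), and 0 passed after adjustment by limma. The receptor count depended on the scaling, as did the share of all genes. The receptor median was -0.062 as deposited, against -0.036 for all genes. With arrays centred 11 of 21 were lower (37.7% of all genes), with a median of -0.0065 against 0.020. With quantile normalization repeated 16 of 21 were lower (48.2%), with a median of -0.026 against 0.0026. The lowest p among the receptor genes as deposited was that of Glra3, a glycine receptor subunit (-0.29 ± 0.084 SE, limma adjusted p = 0.685). Its median signal of 241 was below the control limit. Dlx3 and Dlx4, the Dlx genes of tissues outside the forebrain, had median signals of 211 and 180, below the control limit, and differences of 0.095 and -0.016.

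Markers of other cell types were read beside these values. No list among cortical excitatory neurons, pan-neuronal genes, choroid plexus, meninges, endothelium, microglia, erythroid cells, oligodendrocyte lineage and pituitary held a gene past the adjusted threshold of limma. Their median differences lay between -0.084 and 0.025 as deposited. With arrays centred they lay between -0.028 and 0.080, and with quantile normalization repeated between -0.053 and 0.067. The 10 genes of cortical excitatory neurons measured had a median of 0.025 with 3 lower as deposited. Under these scalings the median was 0.080 and 0.067, with 1 lower in each. The mean value of 4 pan-neuronal genes was between 12.85 and 12.97 in wildtype and between 12.83 and 12.93 in KIS-ko brains. In the pituitary list, 0 of 4 genes had a median signal above 713, and 3 were lower, with a list median of -0.084. The 1 higher gene of this list was Pitx1, a pituitary factor, higher in 6 of 6 litters (difference 0.30, unadjusted and adjusted p of 0.0024 and 0.685 from limma). The part of these cell types in the values of the factors was not tested.

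Likeness to other genes was measured by Pearson r over the 12 arrays, on gene values relative to the array median, among the 8639 genes of above-median value. The 12 arrays are littermate pairs that share litters and a normalization, so that r is given as a description. The mean profile of the 7 factors was most like those of Pogk (r = 0.933, Spearman rho = 0.902), Zfp282 (0.898 and 0.937) and Efnb1 (0.893 and 0.839). Without the 2 arrays farthest from the median of that profile, r was 0.865, 0.789 and 0.738. Gsx2 was most like Mapt, Cnih3 and Card9 (r from 0.944 to 0.946), Dlx2 most like Celsr1, Mark1 and Foxm1 (0.923 to 0.940), and Lhx6 most like Gng10, Adra2b and Fam171a2 (0.907 to 0.920). For Dlx5 the nearest were Ftl2, Mapk1ip1l and Nras (0.906 to 0.914) and for Dlx1 Ywhag, Zbtb22 and Add2 (0.880 to 0.887). Isl1 was nearest to Rnf34, Ptrh2 and St18 (0.819 to 0.850) and Nkx2-1 to Stx17, 3110001D03Rik and Ppa2 (0.809 to 0.829). No factor was among the 3 nearest genes of another factor.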

How the data were processed

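Total RNA of 12 newborn female mouse brains was measured on Affymetrix Mouse Exon arrays, 1 per brain. Per the labels and methods, the authors used Expression Console with exon-level quantile normalization and PLIER, and the deposited intensity is the linear signal of each probeset. Quantile normalization can hide shifts shared by most genes, and the signals of dim probesets are unstable.

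Genotype and litter come from the labels. Main probesets with a symbol were kept if the SD was at most 0.4 of the mean in both genotypes (205469 of 221417). Averages of log2(signal + 16) per gene understate changes of dim genes. Genes and probesets were tested over all 12 arrays in R 4.3.3 (limma 3.58.1), with a term for litter, empirical Bayes variances and p-values adjusted by Benjamini-Hochberg over all 17279 genes or all kept probesets (threshold 0.05). The fit was tested on simulated data. Promoters were searched in Python 3.11.15.

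Littermates are paired by the labels. Their deviations from the genotype means correlated at 0.272, -0.059, 0.136, -0.106, 0.473 and -0.114 in litters 1 to 6. The mean correlation with brains of other litters was -0.019. With the litter term, p-values measure the spread of the littermate differences over litters, with variances moderated over all genes or probesets. Precision is limited by the number of arrays.

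The members and lists were chosen with earlier results of these data known. Named were all members, the list genes of lowest p, the probesets of largest difference and the 3 nearest genes of each profile. Sst, Npy, Reln, Dlx3, Dlx4, the GABA synthesis genes and the brightest probesets of Dlx2 and Isl1 were named after their values were seen. Some list genes are not reported here by name. Alternatives left out the litter term, dim or cross-hybridizing probesets or 1 litter at a time, or changed the pseudocount, spread filter, scaling, averaging over probesets, variance moderation or test. Those leaving out near-zero probesets or probesets under the median intron control were added after seeing the data.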

Additional observations from a re-analysis of the deposited data

Results flagged for a closer look

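The KIS-ko minus wildtype difference of Nkx2-1 in litter 4, 0.42 on the log2 scale, stood apart from the other 5 litters, of which the nearest was -0.065 and the lowest -0.25. Its gap to the nearest litter was 0.718 of the whole range, above the 95% critical value of Dixon for 6 values. This was 1 of 21 groups of values searched over the 7 factors, and chance alone marks about 1 group in 20. The cause was not tested.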

How the results depend on the processing

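In the 20 alternatives that give a p no factor passed the adjusted threshold. Of 106 values of single factors that an alternative changed, 100 kept their direction, and 40 others were identical to the reported ones. The 6 that reversed were Dlx1 (-0.031) and Gsx2 (-0.020) with the median over probesets, Dlx5 with dim probesets left out (-0.030) and without litter 4 (-0.022) or 6 (-0.025), and Nkx2-1 by the study's weighted fold (0.0012 on the log2 scale). Leaving out litters in turn gave Dlx5 values from -0.025 to 0.045. The median of the factors was -0.020 with the median over probesets, where 4 factors were lower, against 1 by the weighted fold.

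With arrays centred, 1 factor (Dlx2) and 6 probesets of the factors had an unadjusted p under 0.05 (6.42% of all genes and 6.29% of all probesets did), 15 of their 68 probesets were lower (43.4% of all), and 16 probesets of all were called. Lower were 19 of 68 after quantile normalization (50.8% of all) and 18 of 43 without dim ones (70.2%). Without dim probesets 644 of the 11425 genes left had an unadjusted p under 0.05. So did 1 of 43 probesets of the factors (5.74% of all probesets). In this setting 5 genes and 30 probesets were called, and Nkx2-1 had no value. Called genes numbered 2 with trended robust moderation, with no spread filter and with a pseudocount of 64 (23 probesets), and 5 with a spread filter at 0.2 (19 probesets), against 1 gene and 10 probesets. Without the litter block, 26 probesets and 1017 genes passed the adjusted and unadjusted limits, and the pairing changed no call of a factor.

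Leaving out litters in turn gave 579 to 4017 genes, 0 to 2 factors and 1 to 7 of their probesets at an unadjusted p under 0.05, the upper ends all without litter 4. In that setting 23.3% of all genes and 16.3% of all probesets were under this limit. The genes numbered 579 without litter 6 and 649 without litter 2. The probesets of the factors numbered 1 without litter 1, 3 or 6, where 5.04%, 5.31% and 3.92% of all probesets were under it. Called genes numbered 1 to 4 (4 without litter 1 and 2 without litter 3), called probesets 9 to 15, and 24 to 40 probesets of the factors were lower. The causes were not tested. The median probeset signals of Nkx2-1, Gsx2 and Isl1 lay below the 95th percentile of intron controls.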
